A study of Arabidopsis thaliana with 18 samples.

Results

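The 793 H3K4me3 peaks described here had less signal in the pool that the deposited table calls treat than in the pool it calls control. They were chosen from 16032 H3K4me3 peaks by the values themselves. A peak was taken when it lay on chromosomes 1 to 5, was under 1600 bp long, reached a control total signal of 5000, and had a treat signal at most the control signal divided by 1.5. The length and signal limits left 14107 eligible peaks, and 793 of them, or 5.62%, also met the limit on the ratio. The lower treat signal of these peaks is therefore how they were found and is not a result.

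The libraries came from chr4 mutant and wild-type (WT) Arabidopsis thaliana, from tissue enriched in shoot apical meristem that was harvested from 5-week-old plants in short days of 8 h light and 16 h dark at 21 °C. Chromatin was precipitated with antibodies to H3K27me3, H3K4me3 or histone H3, giving 18 samples in 6 groups of 3 replicates. Each chromatin sample was split into 3 aliquots, 1 per antibody, so both marks share their material. The labels call the mutant chr4 and the series title chr4/pkr1, and the allele is not given in the sources used here. Each table pools the 3 replicates of a genotype, and its header does not say whether treat is the mutant or the wild type, so every value below belongs to a named pool and to no genotype. With 1 value per pool and mark, the replicate error of a difference is unknown, no p-value was computed, and the depth of the libraries is unknown.

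H3K4me3, trimethylated lysine 4 of histone H3, is placed by trithorax-type methyltransferases with the COMPASS complex and lies mainly at the starts of transcribed genes. H3K27me3, the Polycomb mark, covers genes that are kept silent, such as floral organ genes in a vegetative apex. CHR4, also named PICKLE RELATED 1, belongs to the same group of CHD-type remodelling enzymes as PICKLE. In the shoot apex, H3K4me3 at the start of a gene usually goes with transcription in at least part of the cells. In whole tissue, a weaker mark in every cell and a mark in fewer cells cannot be told apart.

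Markers of the labelled tissue were looked up in both tables. Of 5 shoot meristem markers, 3 carried an H3K4me3 peak (STM, KNAT1 and KNAT6) and all 5 carried H3K27me3, while CLV3 and WUS had no H3K4me3 peak. Of 4 leaf markers, 3 had H3K4me3. All 5 floral and all 3 seed markers had H3K27me3 and none had H3K4me3. Among 4 root markers, SCR had H3K4me3 and the other 3 had H3K27me3.

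The targeted gene itself held one of the peaks. Within CHR4, a 630 bp peak (chromosome 5, 18083410 to 18084040, TAIR10) was listed at 0 in the treat pool, while its control total signal was 10629, and its heights were 0 in treat and 1439 in control. The authors' deposited table gives it an FDR of 0.00125. At the other end of the gene, the main H3K4me3 peak (18092650 to 18093880) had 24676 in the treat pool and 25726 in the control pool, so the difference was not shared along the gene. Between them lay a 130 bp H3K27me3 peak (18087600 to 18087730) that was also listed at 0 in the treat pool and had 8205 in the control pool. A signal of 0 was uncommon. In the treat pool it was listed at 13 of the 793 H3K4me3 peaks, chosen for low treat signal, and at 23 of 10194 nuclear H3K27me3 peaks. In the control pool it was listed at 57 of those H3K27me3 peaks. The absent signal of both marks inside the targeted gene separates the pools at this locus, and no genotype was assigned from it.

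The peaks were mostly weak and short. Total signal, the authors' measure per peak without a stated unit, ran from 0 to 55586 in the treat pool with a median of 4036, and from 6026 to 84812 in the control pool with a median of 8105. Eligible peaks outside the rule had medians of 23694 in the treat pool and 24862 in the control pool. The median length was 440 bp, against 950 bp for eligible peaks outside the rule. In 408 of the 793 peaks, or 51.5%, the peak width was listed as 0 in the treat pool, against 50 of 13314 peaks outside the rule. The rule took peaks with low treat signal, so this contrast is largely fixed by the rule. Peaks higher in the treat pool, found by the same rule with the pools exchanged, had a width of 0 in the control pool at 369 of 564, or 65.4%. A difference of at least 2-fold was held by 389 peaks, of at least 5-fold by 110 and of at least 10-fold by 50.

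**Figure D1:**
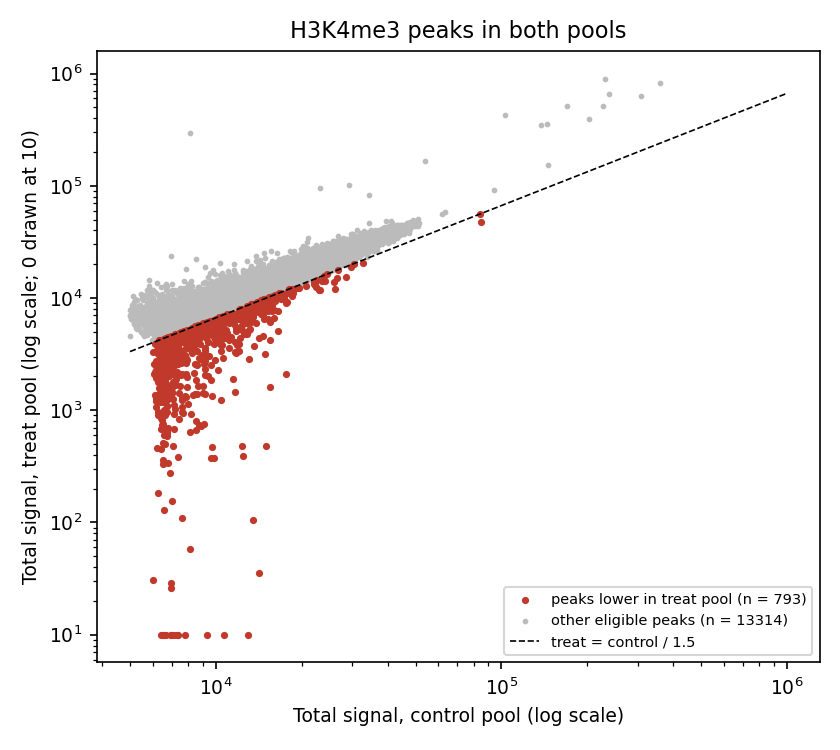
Total signal of each eligible H3K4me3 peak in the control pool (x axis, log scale) and the treat pool (y axis, log scale, with 0 drawn at 10). Red points are the 793 peaks with a treat signal at or under the dashed line, and grey points are the other 13314 eligible peaks; the red points have a median control signal of 8105, and 13 of them have a treat signal of 0.

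The share of eligible peaks that met the rule depended on signal. Of 981 eligible peaks with a control signal from 5000 to below 7500, 335 met it, or 34.1%. The share was 26.8% from 7500 to below 10000, 13.2% from 10000 to below 15000 and 3.26% from 15000 to below 20000. At 20000 or more it was 22 of 9316 peaks, or 0.236%. By length, 165 of 292 eligible peaks under 150 bp met the rule, or 56.5%, and 112 of 11108 peaks of 800 bp or more, or 1.01%. Weak, short peaks thus made up most of the set.

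The same rule with the pools exchanged found 564 of 14027 eligible peaks higher in the treat pool, or 4.02%. Those peaks were shorter, with a median of 250 bp. From 10000 to below 15000 signal units the lower peaks took 13.2% of the eligible peaks and the higher ones 4.90%, and below 7500 they took 34.1% and 29.8%. Eligible peaks as a whole had a median log2 ratio (treat over control) of -0.09. With that median taken out, 669 peaks were lower and 644 were higher, so most of the excess of lower peaks was gone.

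**Figure D2:**
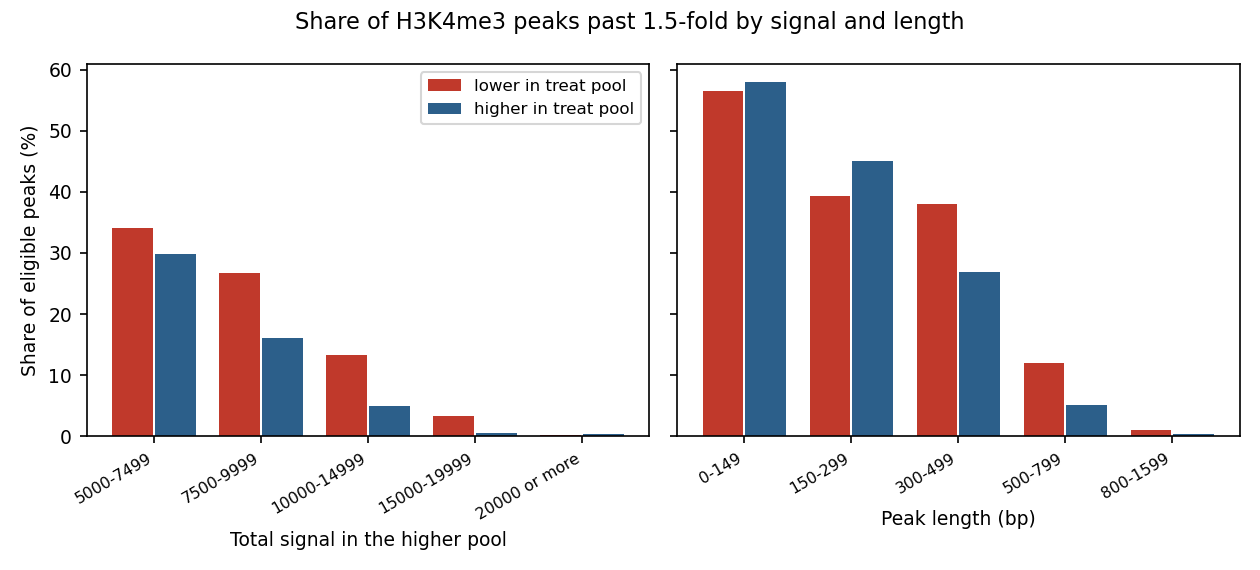
Share of eligible H3K4me3 peaks that were at least 1.5-fold lower (red) or higher (blue) in the treat pool, by total signal in the higher pool (left, the control pool for red bars and the treat pool for blue bars) and by peak length in bp (right). Both shares are largest for weak and short peaks, at 34.1% and 29.8% below 7500.

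At the edge of the fold limit, AT5G27750 had 10192 in the treat pool and 15291 in the control pool, which is 1.5-fold lower and just inside. ZIFL1, a major facilitator transporter gene, had 6427 in treat and 9628 in control, or 1.498-fold, just outside. In all, 141 peaks lay between 1.5-fold and 1.6-fold and 198 eligible peaks between 1.4-fold and 1.5-fold. The signal limit of 5000 removed no peak on a gene that met the ratio. The weakest peak of the set, on AT1G75640, had 3336 in the treat pool and 6026 in the control pool.

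The FDR in the authors' deposited table was under 0.05 at 559 of the 793 peaks. Over all eligible peaks, 5.01% had such an FDR, and 4.42% had it together with a lower treat signal. The FDR comes from the same contrast as the rule, and its computation is not given in the sources used here.

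Most of the peaks lay inside genes and not at their ends. Of the 793, 557 lay wholly inside protein-coding genes, or 70.2%, 176 covered an end of a gene, or 22.2%, and 60 touched no protein-coding gene, or 7.57%. Among eligible peaks outside the rule, 73.6% covered a gene end and 23.3% lay inside genes. Peaks outside the rule whose control signal lay in the interquartile range of the set, from 6821 to 11149, were closer: 29.1% covered a gene end, 61.7% lay inside genes and 9.13% touched none. Of the peaks higher in the treat pool, 12.9% covered a gene end, 77.8% lay inside genes and 9.22% touched none. The gene table gives no strand, so a gene's start was not told from its end. Weak peaks in general lay inside genes more often than strong ones, and no test of a difference was possible.

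**Figure D3:**
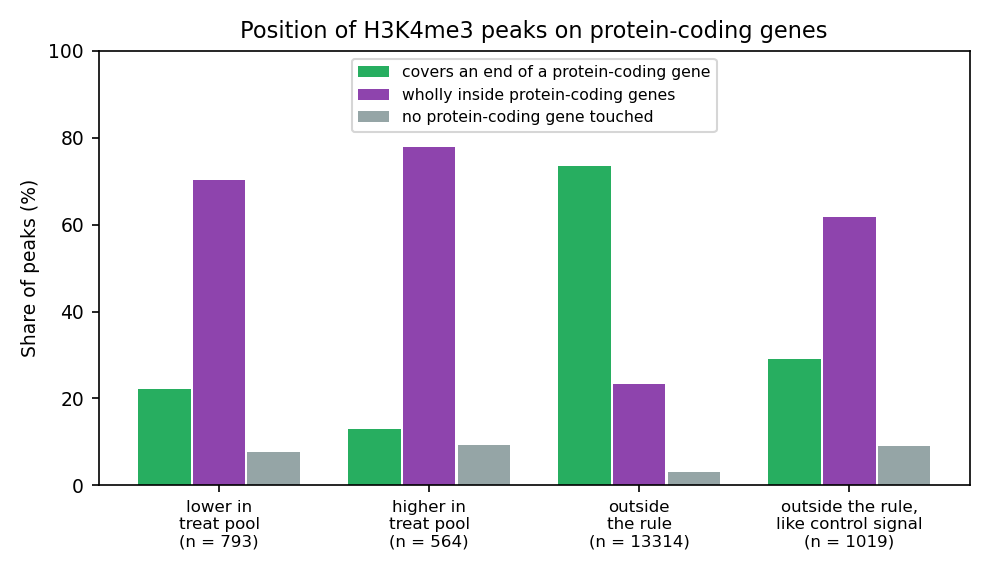
Share of H3K4me3 peaks (y axis, percent) that cover an end of a protein-coding gene (green), lie wholly inside protein-coding genes (purple) or touch none (grey), in 4 sets of peaks. Of the 793 peaks lower in the treat pool 70.2% lie inside genes, against 61.7% of peaks outside the rule with like control signal and 23.3% of all peaks outside the rule. The peaks with like control signal are longer, with a median of 650 bp against 440 bp.

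With at least 150 bp on a gene, 573 of the peaks were linked to 582 protein-coding genes, which are 4.23% of the 13762 genes with an eligible peak; peaks higher in the treat pool were linked to 347 genes, or 2.54%. Peaks on more than 1 gene numbered 15. Counted by the same overlap, which leaves out peaks under 150 bp, 496 of the 582 genes had 1 H3K4me3 peak in all. Another 6 had more than 1 peak of the set and no other, and 80 had a peak outside the set. The strongest other peak of those 80 genes had a median log2 ratio of -0.08, with none at least 1.5-fold lower and 10 at least 1.5-fold higher. Peaks outside the set within 2000 bp of a member numbered 474, with a median log2 ratio of -0.06. None of these neighbours was at least 1.5-fold lower and 44 were at least 1.5-fold higher. Of all eligible peaks, 4.02% were higher by that limit. A peak at least 1.5-fold lower would in most cases be in the set itself. The counts of 0 among other peaks and among neighbours are therefore fixed by the rule, and both medians leave such peaks out. Of all members, 60 had another member next to them within 2000 bp.

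Among genes with the most one-sided peaks, several kept a strong second peak. XXT4, a predicted xyloglucan xylosyltransferase of the cell wall, had a 710 bp peak listed at 0 in the treat pool and at 12929 in the control pool, beside a second peak with 26660 in treat and 29107 in control. AMT2, an ammonium transporter, had a peak at 0 in treat and 7329 in control, beside one with 17465 in treat and 16386 in control. AT1G34110 had 0 in treat and 7801 in control, beside 25579 in treat and 21006 in control, and AT1G02110 had 111 in treat and 7631 in control, beside 21890 in treat and 27204 in control. In these 4 genes the one-sided peak was a minor one, and the stronger peak differed between the pools by less than 1.5-fold. AT1G74290 was the exception, with 0 in treat and 7335 in control at one peak and 7140 in treat and 1404 in control at another, so its signal lay at different places in each pool.

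Other genes had no second peak with at least 150 bp on the gene. BAM3, a receptor kinase related to CLAVATA1, had 26 in the treat pool and 6956 in the control pool. CYP705A19, a cytochrome P450, had 104 in treat and 13450 in control, a 129-fold difference over a 1040 bp peak. AT1G67330 had 36 in treat and 14164 in control. AT5G25470 was listed at 0 in treat and 6708 in control, and AT1G22600 had 58 in treat and 8105 in control. A fold against so small a signal is unstable, since its error is unknown.

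At the other extreme were peaks with high signal and modest ratios. AT5G57830 had 12063 in the treat pool and 26029 in the control pool, a 2.16-fold difference and the largest among the 8 strongest peaks on genes. AT4G31310 had 13880 in treat and 25940 in control, AT3G51000 15514 in treat and 28564 in control, and AT5G17980 15222 in treat and 26470 in control. INDH, an iron-sulfur protein needed for mitochondrial complex I, had 20418 in treat and 32842 in control. AT1G66910 had 19046 in treat and 29798 in control, AT5G13360 17595 in treat and 26845 in control, and AT5G14550 19957 in treat and 30406 in control. The ratios of these 8 peaks ran from 1.52 to 2.16. Stronger still were a pair of peaks on no gene on chromosome 3 (14200290 to 14200490 and 14197600 to 14197810), with 47272 and 55586 in the treat pool and 84812 and 84364 in the control pool. The H3K27me3 signal there was 48466 and 54556 in the treat pool and 78164 and 83180 in the control pool, so both marks were lower in the treat pool at these places. The first of these H3K4me3 peaks was only 200 bp long, with a control signal far above the median of 8105 of the set. Whether reads from repeated sequence collect at these places was not tested, so nothing is read from the marks there.

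Next, fixed lists of genes were read for members. They were drawn up with earlier results of these data known. Of 257 matched genes, 145 had an eligible peak and 9 held a peak of the set, or 6.21%, while 10 held a peak of the opposite direction. Over all genes these shares were 4.23% and 2.54%. The median log2 ratio over the 145 was -0.09, against -0.08 over all protein-coding genes with an eligible peak.

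In the flowering time list, 3 of 26 genes with an eligible peak had a lower one, against 4.23% of all such genes. Nothing is read from this count. By peak height in place of total signal, SMZ and SPL15 were under 1.5-fold, with log2 ratios of -0.34 and -0.24, and only FKF1 of the 3 stayed past it. FKF1, a blue light receptor with an F-box that acts in the photoperiod pathway, had the widest gap of the list, with 4209 in the treat pool and 15514 in the control pool. This was a 3.69-fold difference over a 1030 bp peak, and no other peak had at least 150 bp on the gene. SMZ, an AP2-type floral repressor, had 6452 in treat and 12007 in control. SPL15, which promotes flowering with age, shared its peak with AT3G57910 and had 11083 in treat and 16681 in control. SPL11 was in the opposite class, with 8852 in treat and 4760 in control. The list median was -0.12, against -0.08 over all protein-coding genes with an eligible peak.

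Stress genes contributed 2 of 9, against 4.23% of all genes with an eligible peak, and nothing is read from so short a list. LTI78, induced by cold and drought, had 2 peaks in the set, with 1211 and 2788 in the treat pool and 6171 and 6695 in the control pool. By peak height the first of these 2 peaks had a log2 ratio of -0.31, under 1.5-fold. The strongest LTI78 peak outside the set had 5546 in treat and 5983 in control. DREB1A, a cold-response transcription factor also named CBF3, had 3752 in treat and 7900 in control, and by peak height a log2 ratio of -0.51, under 1.5-fold. The median of this list was -0.33, against -0.08 over all protein-coding genes with an eligible peak. DREB1A belongs to a tandem array of like genes, where reads may be shared.

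In the gibberellin list, GA2, which encodes ent-kaurene synthase of the early pathway, had 10369 in the treat pool and 18473 in the control pool, the only lower gene of 9. In the same list, GA20OX1, GA2OX2 and RGL3 were in the opposite class. MLH3, a mismatch repair protein of meiotic crossover formation, had 5771 in treat and 9577 in control as 1 of 21 meiosis and repair genes, and MSH5 had 8569 in treat and 3879 in control. RPM1, an immune receptor, had 14395 in treat and 22514 in control as 1 of 13. By peak height MLH3 and RPM1 were under 1.5-fold, with log2 ratios of -0.49 and -0.45. In the chromatin remodeller list, CHR4 was the only lower gene of 10, and CHR23 was higher. Over all genes the shares were 4.23% lower and 2.54% higher, and nothing is read from the counts of these short lists.

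None of 10 H3K4 methyltransferase and COMPASS genes, 5 H3K4 demethylase genes and 14 Polycomb genes held a peak of the set or of the opposite class. Their median log2 ratios were -0.08, -0.09 and -0.13. Over all genes the shares were 4.23% lower and 2.54% higher, so nothing is read from a lack of members in short lists such as these and the next ones. None of 10 shoot meristem and boundary genes had a lower peak, but KNAT1, with 7669 in the treat pool and 4372 in the control pool, and KNAT2, with 6769 in treat and 2988 in control, had a higher one. None of 9 auxin genes had a lower peak and IAA1 had a higher one. No ubiquitously expressed gene had a lower peak; CYC1BAT, a mitotic cyclin that this list also held, had a higher one. None of the 18 photosynthesis genes had an eligible peak, which does not mean that they lacked the mark, since eligibility also sets a length limit. Of this list, RBCS1A carried H3K4me3 with 37944 in treat and 34739 in control, and LHCB1.1 with 17514 in treat and 17010 in control.

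Cell division genes were read from a list of 78 made after the member genes had been seen. Some entries were added because they were members, so its counts are fixed in part by how the list was built and nothing is read from them. Of 57 with an eligible peak, 16 had a lower one and 5 a higher one, against 4.23% and 2.54% of all genes, with a median log2 ratio of -0.21. For cytokinesis, HIK, the kinesin that starts cell plate expansion, had 690 in the treat pool and 6785 in the control pool at a peak inside the gene, beside a main peak with 20523 in treat and 20448 in control. ATN, the TANGLED protein that marks the division plane, had 1269 in treat and 7093 in control. PLE, the microtubule bundler MAP65-3, had 2833 in treat and 6960 in control, DRP5A, a dynamin-related protein, 5434 in treat and 9461 in control, and KINESIN-12B 4620 in treat and 7484 in control. Together these 5 genes were lower of 13 with an eligible peak.

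For chromosome structure and replication, 7 of 27 had a lower peak and none a higher one, against 4.23% and 2.54% of all genes. These genes are from the same list made after the members were seen, so nothing is read from this count. TOPII, DNA topoisomerase II, had 1393 in the treat pool and 9181 in the control pool. DEL3, an atypical E2F factor, had 6727 in treat and 11401 in control. 3xHMG-box2, a chromosomal protein of mitotic cells, had 3308 in treat and 7513 in control beside a second peak with 5544 in treat and 5739 in control. CDC45, part of the replicative helicase, had 4794 in treat and 8109 in control, and SMC6A 5318 in treat and 8172 in control. SYN3, a cohesin subunit, had 3949 in treat and 6295 in control.

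Of the cell cycle regulators, CYCA1;1, a mitotic cyclin, had 2 peaks in the set, with 2746 and 5407 in the treat pool and 7727 and 8807 in the control pool. UVI4-LIKE, an inhibitor of the anaphase-promoting complex, had 2961 in treat and 6920 in control, and BUB3.2, related to a spindle checkpoint protein, 6386 in treat and 10771 in control. NEK4, a NIMA-related kinase, had 4391 in treat and 6684 in control beside a second peak with 6192 in treat and 6562 in control. In the opposite class were CDKB2;1, with 8031 in the treat pool and 3175 in the control pool, CDKB2;2, with 8332 in treat and 2555 in control, SYP111, the KNOLLE syntaxin of the cell plate, with 6513 in treat and 1928 in control, CYC1BAT, with 6489 in treat and 3789 in control, and AT5G18700, the kinase RUNKEL, with 8347 in treat and 2613 in control. Cell division genes were thus found in both classes.

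**Figure D4:**
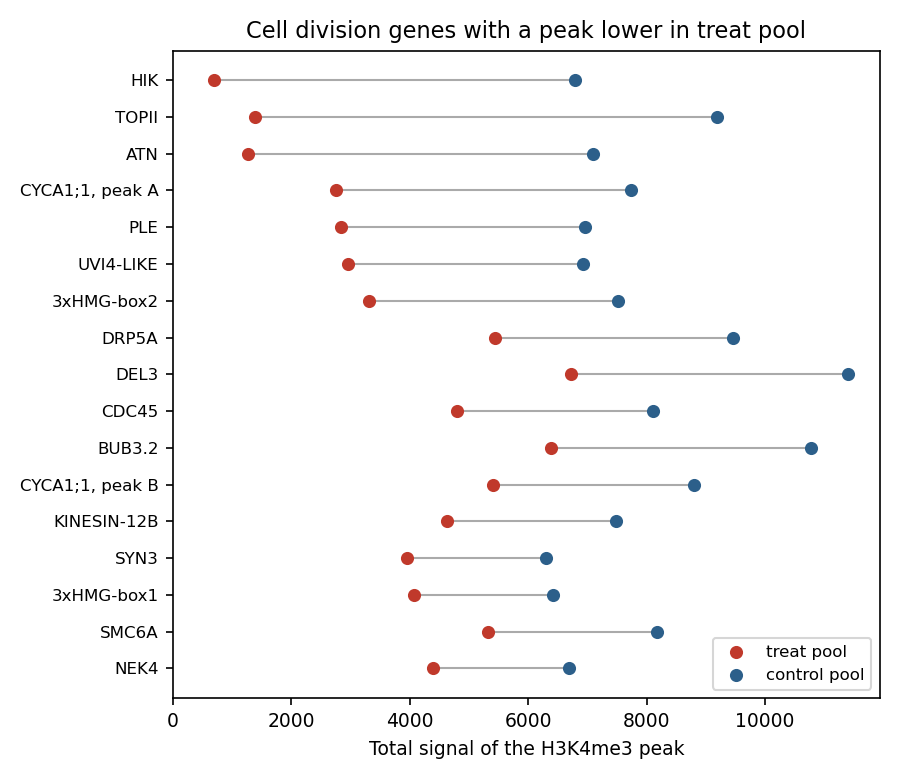
Total signal (x axis) in the treat pool (red) and the control pool (blue) of the H3K4me3 peaks on 16 cell division genes that met the rule, from the widest ratio at the top, HIK with 690 in treat and 6785 in control, to the narrowest. CYCA1;1 has 2 peaks; red lies left of blue in every row because the rule chose the peaks so.

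Transcription factors and receptors were read by gene symbol, again after the values were known, so that nothing is read from the family counts beside the 4.23% lower and 2.54% higher of all genes. WRKY genes had 5 of 25 in the set and none in the opposite class. WRKY60 had 1554 in the treat pool and 6735 in the control pool, WRKY58 1992 in treat and 7915 in control, WRKY27 2128 in treat and 8373 in control, and WRKY57 7937 in treat and 12201 in control. WRKY41 shared a short peak with 3xHMG-box1, with 4071 in treat and 6425 in control. MYB genes had 4 of 28 in the set and 2, MYB20 and MYB88, in the opposite class. MYB34, a regulator of indole glucosinolate synthesis, had 2 peaks in the set, with 1407 and 3514 in the treat pool and 8449 and 7279 in the control pool.

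In the class of leucine-rich repeat receptors, 9 of 50 had a lower peak and 3 a higher one (4.23% and 2.54% over all genes), and 7 of the 9 were receptor-like proteins. RLP46 had 1100 in the treat pool and 6712 in the control pool, RLP33 1325 in treat and 7789 in control, and RLP52 5184 in treat and 13031 in control. RLP27 had a lower and a higher peak. Many receptor-like protein genes stand in arrays of similar copies, so reads may be split between them. Cytochrome P450 genes had 8 of 61 lower and 6 higher, and ABC transporter genes had 5 of 56 lower and 4 higher.

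Histone deacetylase and acetyltransferase genes had 2 of 20 in the set and none in the opposite class, against 4.23% and 2.54% of all genes. These counts were again made after the values were seen, so nothing is read from them. HAF2, a TAF1-type histone acetyltransferase, had 476 in the treat pool and 12379 in the control pool, and HDA18, a histone deacetylase, 682 in treat and 6410 in control. Other chromatin genes were picked from the set by name and not from a list, so no share can be given for them. CHR34 had 1593 in treat and 6423 in control, and CHR24 10946 in treat and 16855 in control. JMJD5, a jumonji protein linked to the clock, had 937 in treat and 7665 in control, and HTA8, an H2A.Z variant gene, 1393 in treat and 8596 in control. SUVH4, the H3K9 methyltransferase KRYPTONITE, had 12210 in treat and 19252 in control, and SUVR5 7072 in treat and 11014 in control. VIM1, needed to maintain CG methylation, had 6180 in treat and 9699 in control.

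H3K27me3 was not used by the rule and was read at the same places. Of the 793 peaks, 163 overlapped an H3K27me3 peak, or 20.6%, with 160 H3K27me3 peaks in all. The share was 6.43% for eligible peaks outside the rule, 22.0% for those of like control signal and 32.1% for peaks higher in the treat pool. The overlap therefore stood near that of peaks outside the rule of like control signal, which were longer, and below that of peaks higher in the treat pool. Log2 ratios (treat over control) of the H3K27me3 peaks at the set had a median of -0.23, against -0.23 at eligible peaks outside the rule and -0.14 over all nuclear H3K27me3 peaks.

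Of the 160 H3K27me3 peaks, 43 were at least 1.5-fold lower in the treat pool, or 26.9%, and 27 at least 1.5-fold higher, or 16.9%. Over all 10194 nuclear H3K27me3 peaks, 19.5% were lower and 20.4% higher. At eligible H3K4me3 peaks outside the rule these shares were 22.2% and 16.0%, at those of like control signal 24.12% and 20.18%, and at peaks higher in the treat pool 29.0% and 20.5%. The shares at the set thus lay near those at other H3K4me3 peaks. With an FDR under 0.05 in the authors' deposited table as well, 16 of the 160 were lower and 10 higher, or 6.25%, against 3.91% and 4.47% of all. At peaks higher in the treat pool 9.66% were lower and 10.8% higher by the same limits, and at those outside the rule with like control signal 4.39% and 2.63%. Most of the 160 lay within 1.5-fold between the pools. Taking the strongest H3K27me3 peak at each of the 163, 114 were lower in the treat pool, or 69.9%, and 49 higher. The lower share was 71.0% at peaks outside the rule of like control signal, 72.4% at peaks higher in the treat pool and 60.9% over all nuclear H3K27me3 peaks, so it was not particular to the set.

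**Figure D5:**
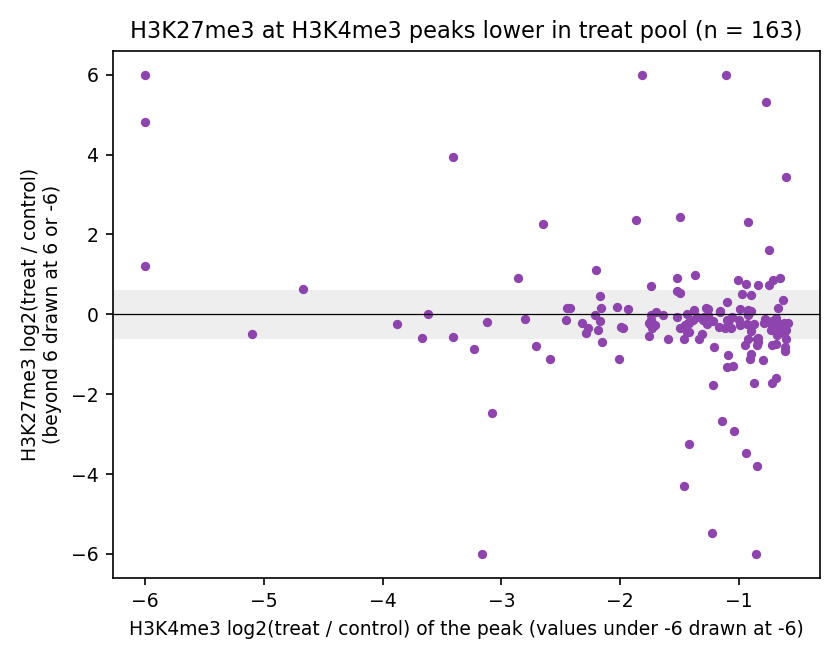
H3K4me3 log2 ratio (x axis) and H3K27me3 log2 ratio (y axis) of treat over control for the 163 peaks of the set that overlap an H3K27me3 peak, 1 point each, with extreme values drawn at the axis limits. The grey band spans less than 1.5-fold; 41 points lie below it and 26 above it, and most lie inside.

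Among members on genes, the strongest H3K27me3 lay on AT4G29610, with 75658 in the treat pool and 91552 in the control pool for H3K27me3 and with 2577 in treat and 8457 in control for H3K4me3. ERF10 had 64455 in treat and 71573 in control for H3K27me3, and WRKY57 57041 in treat and 67023 in control. AT3G12460 had 58751 in treat and 71231 in control, and SHI, a zinc finger regulator of growth, 48240 in treat and 66690 in control. SHI also had an H3K4me3 peak outside the set that was higher in the treat pool, with 7661 in treat and 3337 in control. At the member peaks of all 5 genes both marks were lower in the treat pool, H3K4me3 by the rule. H3K27me3 there differed by less than 1.5-fold. AIL6 and SPCH, named after their values were seen, were alike in this. AIL6, an AP2-type meristem factor, had 30151 in treat and 33435 in control for H3K27me3 beside 3058 in treat and 7532 in control for H3K4me3. SPCH, which starts the stomatal lineage, had 40171 in treat and 44676 in control beside 3447 in treat and 7394 in control.

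Opposite differences were found at other genes. The pectin methylesterase inhibitor gene PMEI6, listed as AT2G47670, had an H3K27me3 signal of 8240 in the treat pool and was listed at 0 in the control pool, while its H3K4me3 signal was 0 in treat and 9303 in control. ATL8, a RING-type ubiquitin ligase gene, had 8072 in treat and 204 in control for H3K27me3 beside 7623 in treat and 13029 in control for H3K4me3. ZF14 had 13673 in treat and 6339 in control beside 1852 in treat and 8480 in control. In the other direction both marks were lower at ERF9, with 886 in treat and 12380 in control for H3K27me3 beside 4157 in treat and 7507 in control for H3K4me3. At DAR5 the H3K27me3 values were 1405 in treat and 9004 in control, and at the stronger MYB34 overlap 4746 in treat and 10344 in control.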

How the data were processed

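Alignment used Bowtie and the TAIR10 build, as named in the submitters' processing notes; the peak caller and normalization are not given in the sources used here. Per the file headers, the authors deposited 1 row per peak with total signal, height and width (bp) in a control and a treat pool, log2 ratios, FDR values and log10 p-value scores, which were not used for calls. The total signal and height are treated as scores, since the authors state no unit for them; track names in the labels hold the words bgsub, Fnor and smooth. The deposited FDR is p-value-like, and its computation is not stated. Log2 ratios were recomputed from total signal and lay within 1.2e-11 of the deposited ones where both pools reached 1. Depth is unknown, so no interval was given.

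Gene positions came from RefSeq (TAIR10.1; 27444 protein-coding genes of the nuclear chromosomes) and are not printed. As a check of the builds, 70.7% of eligible peaks covered a gene end, against 37.1% with genes shifted by 2000 bp. A peak was linked to a gene by an overlap of 150 bp, and to H3K27me3 by 1 bp. Of 274 entries in 13 lists, 257 matched. The naming rule took the 12 largest ratios, the 8 highest control signals, members of the fixed lists, the 5 highest H3K27me3 signals and 3 peaks at each side of a limit. All other genes were chosen after their values were seen, and so were the gene families and the cell division list, some of whose entries were added because they were members. Members and lists were chosen with earlier results of these data known. The code of the rule was run on simulated data in which every planted fall had to be found and no other peak could reach the limit. That run checks the code only and gives no error rate of the rule for weak or short peaks. Promoter sequence was not analysed here. Python 3.11.15, pandas 2.3.3, numpy 2.4.6 and matplotlib 3.10.9 were used.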

Additional observations from a re-analysis of the deposited data

How the results depend on the processing

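The number of lower peaks depended on the limits, by construction. It was 389 at 2-fold, 210 at 3-fold, 254 with a control signal of at least 10000, 507 with a length of at least 300 bp, and 72 with 2-fold and 10000 together, a setting chosen after seeing the data. With the pools exchanged these counts were 323, 163, 111, 246 and 44. Peak height gave 661 lower and 510 higher peaks, and 604 of the 793 were kept. Recentring kept 669, leaving out repeat windows 790 and an FDR under 0.05 559. H3K27me3 peaks within 1000 bp were found at 263 of the 793. Of the peaks chosen by the naming rule, 11 were under 1.5-fold by peak height, among them SPL15, SMZ, RPM1, MLH3, DREB1A and 1 peak of LTI78, and 7 after recentring, among them SPL15, RPM1 and WRKY57. The 16 cell division genes became 7 at 2-fold, 2 with a control signal of 10000, and 13 by peak height or after recentring. No paired analysis was possible because each genotype is 1 pool per mark, so no replicate could be left out either. Promoter sequence was not run, since no sequence was used here.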

Other observations

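The lower peaks were spread over all 5 chromosomes, from 4.93% of eligible peaks on chromosome 3 to 6.21% on chromosome 4. Of them, 691 had no other lower peak as a direct neighbour in the order of H3K4me3 peaks, 48 pairs stood in a row, and 2 places held 3 in a row, on chromosome 2 (18157630 to 18158160) and on chromosome 5 (21588420 to 21589010). No longer row was found.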
